A study of Mus musculus with 10 samples.

Results

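The mRNAs of 41 autophagy and mitophagy genes were followed in the gastrocnemius, a mixed calf muscle, of young and aged mice. The genes were taken by name, from initiation of the autophagosome to the receptors that deliver mitochondria to it, and all 41 were found among the 37947 gene names of the table. They were listed under 195 transcripts, and each gene is represented by the transcript whose mean over the 10 libraries was highest. Sequencing of poly-A RNA gave 5 libraries at an age of 6 months (young) and 5 at 24 months (aged), each from its own mouse. All mice were male C57BL/6, with no transgene, deletion or treatment in either group. The comparison asks which of these genes differ with age in the muscle. Values are log2 of FPKM, a number of fragments scaled to transcript length and library size, and an FPKM under 1 is listed as 0. All 41 genes had a mean FPKM of at least 1, and 38 were above 0 in every library. In whole muscle, fewer cells of a type and less RNA in each cell cannot be told apart.

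Autophagy encloses cell contents in a double membrane, the autophagosome, and delivers them to the lysosome for breakdown. The ULK1 kinase complex starts the process, a lipid kinase complex around Beclin 1 marks the membrane, and ubiquitin-like systems attach proteins of the ATG8 family (LC3 and GABARAP) to it. Receptors then tie cargo to ATG8 proteins, and mitophagy is the form that removes mitochondria, through PINK1 and Parkin or through receptors in the mitochondrial membrane such as BNIP3. In skeletal muscle the pathway is known for its part in fasting and disuse, when FoxO factors raise several of these genes.

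TFEB, itself a member, is known to drive lysosomal and autophagy genes through an element with the core CACGTG. Promoter windows of RefSeq, from 250 bases before to 50 bases after a start on GRCm38.p6, were given for 33 of the 41 members in 38 windows. CACGTG, which reads the same on both strands, was in windows of 6 members, Atg3, Atg5, Atg7, Atg14, Lamp1 and Bnip3 (18.2% of the 33), and in windows of 8.09% of all 27025 genes with one. The longer GTCACGTG, searched on both strands and holding the same core, was in 4 of them, Atg3, Atg7, Atg14 and Lamp1 (12.1%), and in windows of 2.55% of genes. A forkhead-type TGTTTAC was in no member window and in windows of 4.05% of genes. The window of Atg7 lies at a start 27969 bases inside the gene and is not shown. Of the others, the windows of Lamp1, Atg3 and Bnip3 are shown, with each CACGTG in capitals, because the levels of these 3 are described library by library below, and they were chosen after their values were seen. They lie at chr8:13158911-13159210 on the plus strand, chr16:45158579-45158878 on the plus strand and chr7:138909457-138909756 on the minus strand.
Lamp1: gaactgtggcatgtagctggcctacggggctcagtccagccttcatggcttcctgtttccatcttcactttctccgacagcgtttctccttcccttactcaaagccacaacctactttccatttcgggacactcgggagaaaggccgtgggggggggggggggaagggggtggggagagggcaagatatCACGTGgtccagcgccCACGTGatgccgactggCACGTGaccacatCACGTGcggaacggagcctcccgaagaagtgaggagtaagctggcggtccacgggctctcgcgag
Atg3: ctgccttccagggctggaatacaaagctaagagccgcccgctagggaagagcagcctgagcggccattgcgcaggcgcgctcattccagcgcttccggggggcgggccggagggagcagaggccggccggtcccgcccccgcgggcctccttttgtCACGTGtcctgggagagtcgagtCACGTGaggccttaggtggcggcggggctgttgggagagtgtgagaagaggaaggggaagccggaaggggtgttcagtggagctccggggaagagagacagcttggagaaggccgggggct
Bnip3: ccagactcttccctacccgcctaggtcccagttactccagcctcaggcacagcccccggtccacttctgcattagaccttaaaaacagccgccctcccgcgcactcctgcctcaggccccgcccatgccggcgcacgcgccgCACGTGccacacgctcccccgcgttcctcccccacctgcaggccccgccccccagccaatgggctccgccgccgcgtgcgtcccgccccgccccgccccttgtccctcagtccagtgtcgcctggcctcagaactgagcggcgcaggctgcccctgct
Lamp1 held 4 copies, beginning 61, 45, 28 and 15 bases before the start. Atg3 held 2 copies, at 94 and 71 bases, and Bnip3 held 1, at 108 bases. These are matches of letters and not measured binding sites.

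The libraries were not alike, and this bears on every value below. Depth was 19886433 to 34554292 reads, and both libraries numbered 3, young (34554292 reads) and aged (31783508 reads), were the deepest. Aged library 3 was the lowest of the 10 libraries for 28 of the 38 members above 0 everywhere (73.7%), against 39.8% of 8216 genes above 0 everywhere. Its members had a median of -0.91 on the log2 scale against the mean of the other 4 aged libraries. Aged library 5 was the highest of the 10 for 21 of the 38 members (55.3%), against 23.7% of genes, with a median of 0.52 above the other aged libraries. Results are therefore given with all libraries and without both libraries numbered 3, and for several members also without aged library 5.

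**Figure D1:**
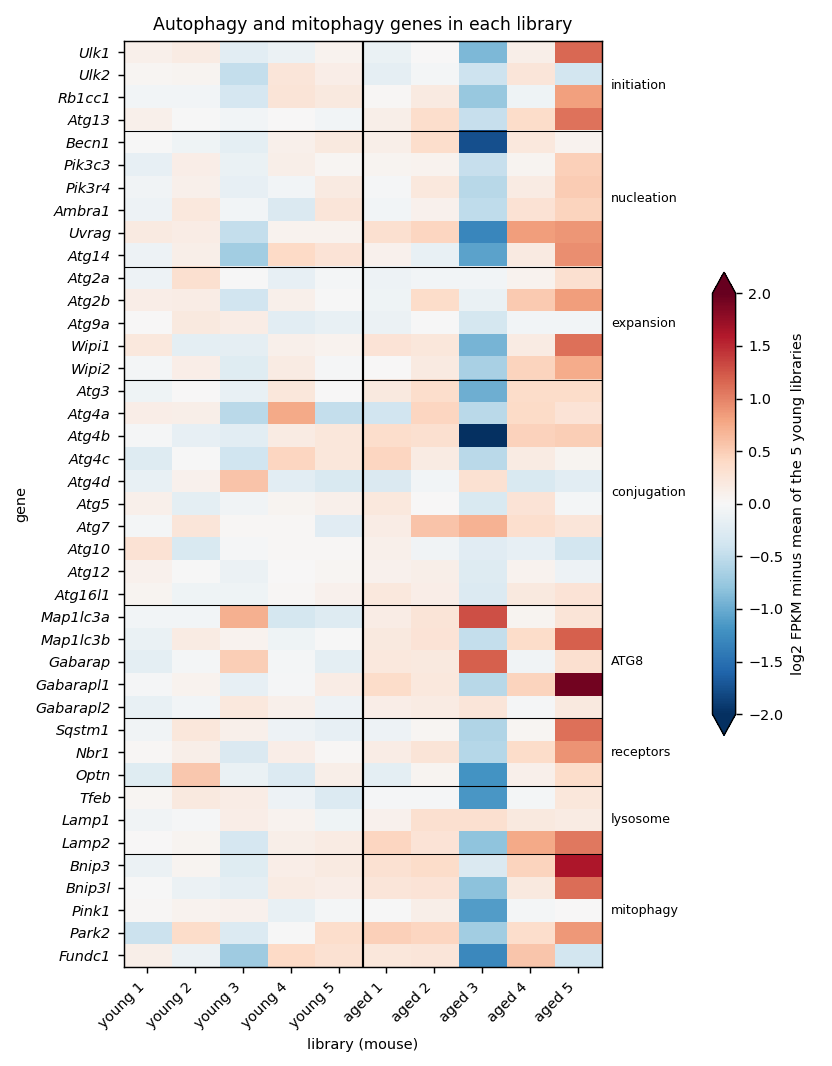
Rows are the 41 genes in the order of their roles and columns the 10 libraries, and color shows log2 FPKM minus the mean of the 5 young libraries (a value listed at 0 was taken as 0). The column of aged library 3 is low for most genes and that of aged library 5 is high, with Map1lc3a and Gabarap going the other way in aged library 3.

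The low values of aged library 3 went with position along the gene. Of the 145 member transcripts above 0 in all libraries, 134 matched 1 annotated transcript by their length. The 56 that end within 100 bases of the gene's 3′ end had a median of -0.62 in aged library 3 against the other aged libraries, and 15 of them were lower by more than 1. The 67 that end more than 1000 bases away had a median of -2.11, and 52 were lower by more than 1. The same medians in young library 3 against the other young libraries were -0.10 and -0.35. Transcripts of a gene share exons, so these values are not independent of each other. Bnip3 shows it within a gene. Bnip3-001, which reaches the 3′ end, measured 6.18 in aged library 3 and 6.79 to 8.10 in the other aged libraries. Bnip3-004, which ends 3445 bases before it, measured 3.52 against 6.96 to 8.36. Tfeb-002 at the 3′ end stood at 5.28 in aged library 3 among 5.04 to 5.35, whereas Tfeb-005, 6122 bases away, stood at 1.99 against 5.38 to 5.59. Lamp2 went the other way. Lamp2-003, which reaches the 3′ end, measured 0.15 against 3.27 to 4.12. Lamp2-002, the transcript used below, ends 18150 bases away and measured 2.66 against 3.74 to 4.53. The part of RNA quality in the comparison of age was not tested.

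**Figure D2:**
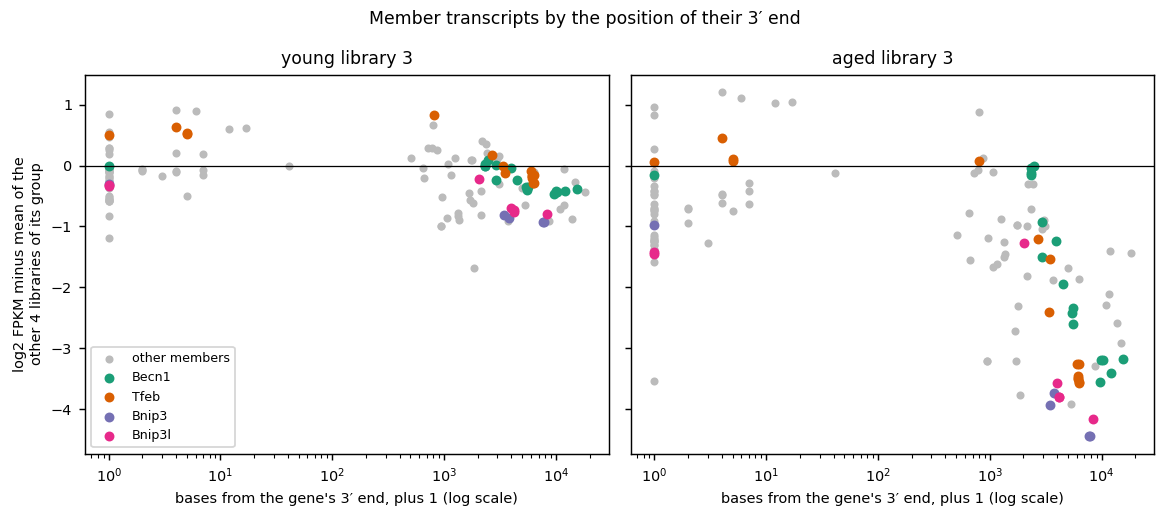
Points are the 134 member transcripts with a matched annotation, by the distance of their 3′ end from the 3′ end of the gene (log scale, plus 1 base) and by log2 FPKM in library 3 minus the mean of the other 4 libraries of its group. In aged library 3 the medians were -0.62 within 100 bases and -2.11 beyond 1000 bases, and in young library 3 they were -0.10 and -0.35.

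With all 10 libraries, 1 of the 41 members, Atg7, was higher in aged muscle at an unadjusted p under 0.05 by limma, against 6.05% of 10161 genes tested, and 0 were lower, against 0.876%. No member passed an adjusted p of 0.05 by limma, as did 0.00984% of genes. No member had aged libraries all above or all below the young ones, against 2.08% of genes higher and 0.344% lower. The difference was positive for 29 of the 41 members (70.7%) and for 61.4% of genes, and its median was 0.06 for the members and 0.07 for all genes. The members as a list thus stood near the background of all genes. Without both libraries numbered 3, 10 members were higher at an unadjusted p under 0.05 by limma, against 13.5% of genes, and 0 were lower, against 1.38%. They were Atg13, Uvrag, Atg3, Atg4b, Atg7, Map1lc3a, Map1lc3b, Gabarap, Lamp2 and Park2, and limma's adjusted p was between 0.27 and 0.40 for each. The 4 aged libraries lay above the 4 young ones for 12 members, against 9.92% of genes, and the median was 0.18 for the members and 0.14 for all genes. Leaving out aged library 3 alone gave 12 members, against 12.5% of genes, the 10 without Map1lc3a and Gabarap and with Bnip3, Nbr1, Gabarapl1 and Bnip3l. Leaving out both libraries numbered 3 and aged library 5 also gave 10, against 14.2%, the first 10 without Gabarap and Park2 and with Gabarapl1 and Bnip3. There the differences of Atg13, Uvrag, Map1lc3b and Lamp2 were 0.26, 0.41, 0.29 and 0.40. Without aged library 5 alone the median was -0.03 for the members and 0.05 for all genes, and 18 of the 41 members (43.9%) and 56.7% of genes were positive.

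**Figure D3:**
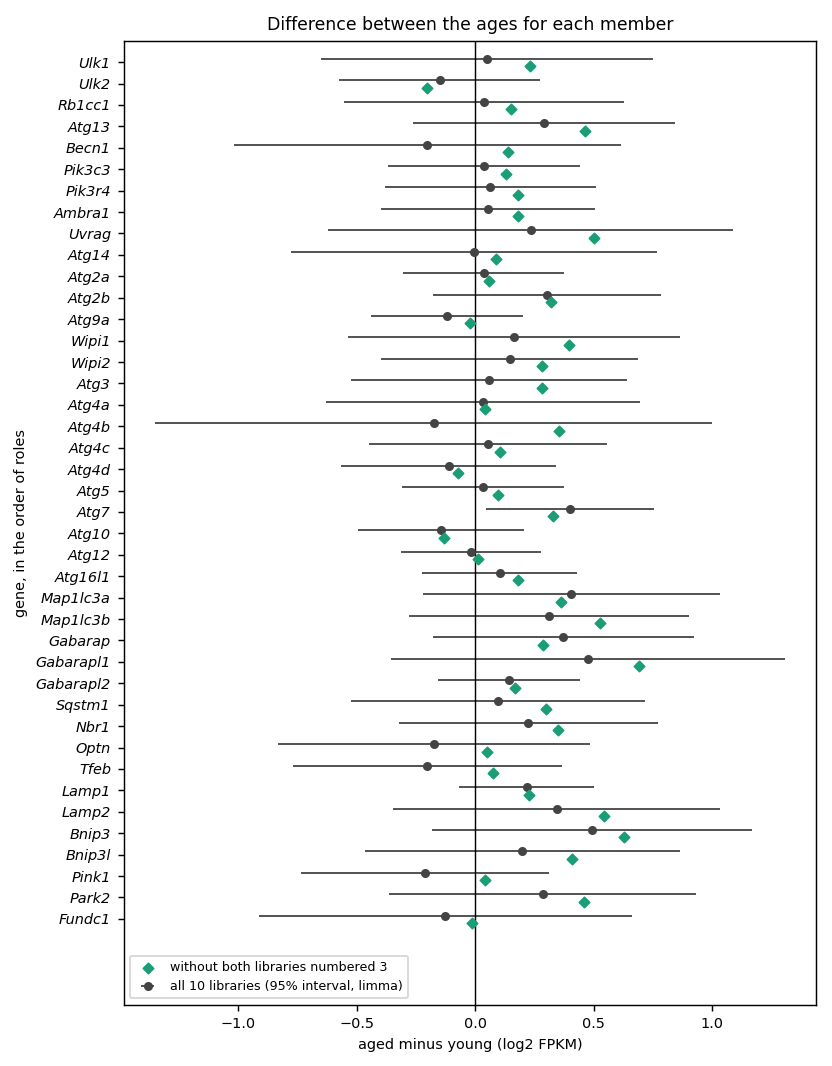
Circles are aged minus young log2 FPKM for each member with all 10 libraries and bars the 95% interval of limma, and diamonds are the same difference without both libraries numbered 3. With all libraries the interval of Atg7 alone lies above 0 (0.04 to 0.75), and the diamonds lie above 0 for 36 of the 41 members.

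No gene of the initiation complex was called with all libraries, 0 of 4, against 6.05% of all genes higher and 0.876% lower. In groups this small, here and below, a count of 0 stands near those shares. Ulk1, the kinase that starts autophagosome formation, measured 4.15, 4.22, 3.85, 3.93 and 4.12 in young libraries 1 to 5 and 3.92, 4.07, 3.16, 4.16 and 5.20 in the aged. Aged library 3 was below and aged library 5 above every young library, while the other 3 lay among them. Its difference was 0.05, and became 0.23 without both libraries numbered 3 and -0.23 without aged library 5. Atg13, the subunit that couples ULK1 to its partners, measured 3.01 to 3.18 in young muscle and 3.18, 3.42, 2.60, 3.44 and 4.16 in the aged. Its difference was 0.29 with an SE of 0.25 (limma unadjusted p = 0.272), and 0.46 with an SE of 0.20 without both libraries numbered 3 (limma unadjusted p = 0.0440). Without aged library 5 alone it was 0.09. Rb1cc1 (FIP200), the scaffold, and Ulk2, the second kinase, differed by 0.04 and -0.15, and by 0.15 and -0.20 without both libraries numbered 3. Without aged library 5 the difference of Rb1cc1 was negative, and the median of the 4 genes was -0.13.

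Genes of the lipid kinase complex that marks the membrane were likewise not called with all libraries, 0 of 6. Becn1, which encodes Beclin 1, had means of 5.52 ± 0.15 (SD, n = 5) in young and 5.32 ± 0.88 in aged muscle, and its transcript with the highest mean is 375 bases long and ends 4532 bases from the 3′ end of the gene. It measured 3.76 in aged library 3 and 5.60 to 5.88 in the other aged libraries. Becn1-001, which reaches the 3′ end, measured 3.59 in aged library 3 and 3.71 to 3.86 in the others. The difference of Becn1 was -0.20 with all libraries and 0.14 without both numbered 3. Uvrag, a Beclin 1 partner of the later, maturing complex, measured 1.67, 1.64, 1.02, 1.56 and 1.57 in young and 1.82, 1.93, 0.18, 2.33 and 2.37 in aged libraries 1 to 5. Aged libraries 1, 2, 4 and 5 were above all young ones and aged library 3 was below them. Without both libraries numbered 3 its difference was 0.50 with an SE of 0.15 (limma unadjusted p = 0.00799). With all libraries it was 0.23, and without aged library 5 it was 0.07. Pik3c3, Pik3r4 and Ambra1, the lipid kinase, its regulatory subunit and an adaptor, differed by 0.04 to 0.06, and by 0.13 to 0.18 without both libraries numbered 3. Each of them turned negative without aged library 5, where the median of the 6 genes was -0.06. Atg14, which directs the complex to the early membrane, is a low gene and was listed at 0 in aged library 3, and its difference was -0.01, or 0.09 without both libraries numbered 3.

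In the group that extends the membrane, Atg9a, a lipid scramblase of the vesicles that seed it, was the most abundant at 5.17 ± 0.18 (SD, n = 5) in young and 5.05 ± 0.13 in aged muscle. Its difference of -0.12 had a 95% interval of -0.44 to 0.20, and was -0.02 without both libraries numbered 3. The lipid transfer proteins Atg2a and Atg2b differed by 0.04 and 0.30, with limma unadjusted p = 0.821 and 0.191, and by 0.06 and 0.32 without both libraries numbered 3. Wipi1 and Wipi2, which bind the lipid made by the kinase complex, differed by 0.16 and 0.14, and by 0.40 and 0.28 without both libraries numbered 3, with none of these past the threshold. Without aged library 5 they differed by -0.07 and -0.0049. Wipi1 stood at 5.34 in aged library 5 and at 3.30 in aged library 3, around a young range of 4.04 to 4.45.

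The conjugation machinery held the only member called with all libraries. Atg7, the activating enzyme that serves both ubiquitin-like systems, measured 1.11, 1.40, 1.17, 1.17 and 0.92 in young libraries 1 to 5 and 1.31, 1.72, 1.85, 1.49 and 1.40 in the aged. The aged libraries other than number 1 reached or passed the top of the young range, and aged library 1 lay within it. The means were 1.15 ± 0.17 (SD, n = 5) and 1.55 ± 0.23, a difference of 0.40 with an SE of 0.16 and a ratio of 1.32. Limma gave an unadjusted p of 0.0309 and an adjusted p of 1.00, and a two-sided exact permutation test of this value gave p = 0.0159. The aged library was higher in 5 of 5 same-numbered pairs, and 141 to 430 reads lay behind each value. Unlike most members, Atg7 was highest in aged library 3. The call was lost without young library 1 (0.39), young library 4 (0.40), young library 5 (0.34) or aged library 2 (0.36), and with median of ratios scaling (0.36) or quantile normalization (0.34), and the difference was positive in all 23 alternatives.

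The remaining conjugation genes were steadier or hung on aged library 3. Atg3, the enzyme that transfers LC3 to lipid, measured 3.07 to 3.44 in young muscle and 3.42, 3.57, 2.24, 3.58 and 3.58 in the aged. Its difference went from 0.06 to 0.28 without both libraries numbered 3, with limma unadjusted p = 0.827 and 0.0310. Atg4b, a protease that trims ATG8 proteins, measured 3.02 to 3.46 in young and 3.59, 3.55, 0.73, 3.69 and 3.72 in aged libraries. Its difference of -0.18 became 0.35 without both libraries numbered 3 (limma unadjusted p = 0.0164). That value comes from a transcript of 513 bases that ends 14927 bases from the 3′ end. In Atg4b-001, of 2997 bases, aged library 3 measured 2.55 and the other aged libraries 2.42 to 2.85, and in the longest transcript, Atg4b-002 of 4186 bases, it measured 1.59 against 1.74 to 2.15. Atg4d, another protease of this family, was highest in young library 3 and differed by -0.11, or -0.07 without both libraries of that number. Atg5, Atg12, Atg10 and Atg16l1, the parts and enzyme of the second conjugate, differed by 0.03, -0.02, -0.14 and 0.10. Without both libraries numbered 3 the first 3 differed by 0.10, 0.01 and -0.13. Atg16l1 measured 2.73, 2.59, 2.59, 2.69 and 2.76 in young and 2.88, 2.80, 2.39, 2.87 and 2.94 in aged libraries. Its groups did not overlap without both libraries numbered 3 and then differed by 0.18 (limma unadjusted p = 0.101). Atg12 was among the most even members, with 2.98 to 3.18 in young and 2.84 to 3.21 in aged muscle. Atg4a and Atg4c were low, and Atg4a was listed at 0 in both libraries numbered 3.

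All 5 ATG8 genes, the proteins that coat the autophagosome, had a positive difference, from 0.14 to 0.47, and 0 of 5 were called with all libraries. Their differences had a median of 0.37, against 0.07 for all genes. The median was 0.36 without both libraries numbered 3, 0.18 without aged library 3 alone and 0.13 without aged library 5, against 0.14, 0.15 and 0.05 for all genes. Summed over the 5 transcripts, FPKM was 380, 419, 538, 381 and 380 in young libraries 1 to 5 and 471, 484, 672, 456 and 692 in the aged. Young library 3 lay among the aged libraries, and the other 4 young libraries were below every aged one. The means were 420 ± 68 (SD, n = 5) and 555 ± 117, and the aged library was higher in 5 of 5 same-numbered pairs.

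The 5 genes fell into different patterns. Map1lc3a, an LC3 gene, measured 6.85, 6.85, 7.61, 6.54 and 6.64 in young and 7.05, 7.16, 8.19, 6.95 and 7.16 in aged libraries, with both libraries numbered 3 at the top of their groups. Its difference was 0.41 with an SE of 0.28 (limma unadjusted p = 0.182, exact permutation p = 0.222). Gabarap, of the GABARAP branch, measured 6.30, 6.45, 6.98, 6.46 and 6.30 against 6.71, 6.69, 7.70, 6.43 and 6.82, again with the libraries numbered 3 on top. The groups overlapped, with a difference of 0.37 and an SE of 0.25 (limma unadjusted p = 0.166, exact permutation p = 0.175). Without both libraries numbered 3 the differences were 0.36 and 0.29, with limma unadjusted p = 0.0134 and 0.0404. Without aged library 3 alone they were 0.18 and 0.16, with limma unadjusted p = 0.402 and 0.351.

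Map1lc3b, the LC3 gene whose protein is the usual marker of autophagosomes, measured 6.78, 7.08, 6.99, 6.83 and 6.92 in young and 7.11, 7.19, 6.44, 7.28 and 8.12 in aged libraries. Aged library 3 was the lowest of all and the other aged libraries were above every young one. The difference was 0.31 with an SE of 0.27 (limma unadjusted p = 0.269, exact permutation p = 0.333), and 0.53 without both libraries numbered 3 (limma unadjusted p = 0.0402). Without aged library 5 alone it was 0.09 (limma unadjusted p = 0.660). Gabarapl1 measured 4.56, 4.67, 4.43, 4.57 and 4.74 against 4.96, 4.80, 4.03, 5.03 and 6.51, again with aged library 3 the lowest and aged library 5 the highest of all. Its difference of 0.47 with an SE of 0.38 was the second largest of the members (limma unadjusted p = 0.234, exact permutation p = 0.333). It was 0.69 without both libraries numbered 3 (limma unadjusted p = 0.0745), 0.73 without aged library 3 alone (limma unadjusted p = 0.0435) and 0.11 without aged library 5 (limma unadjusted p = 0.617). Leaving out both libraries numbered 3 as well as aged library 5 gave 0.30 with an SE of 0.11 (limma unadjusted p = 0.0245). Aged library 5 stood 1.81 above the mean of the other aged libraries. Gabarapl2 was the most even, with means of 5.87 ± 0.15 (SD, n = 5) and 6.01 ± 0.10 and a difference of 0.14 (limma unadjusted p = 0.323, exact permutation p = 0.103).

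The make-up of the family stood apart in aged libraries 3 and 5. Gabarapl1 was 4.01% to 7.02% of the summed FPKM in young libraries and 13.2% in aged library 5. Map1lc3b was 40.2% of the sum in aged library 5 and 12.9% in aged library 3, where Map1lc3a made up 43.5%. The Map1lc3b transcript used ends 1748 bases from the 3′ end of the gene, and those of Map1lc3a and Gabarap end within 11 bases of it. Map1lc3b-001, which reaches the 3′ end, measured 5.94 in aged library 3, 5.87 to 6.85 in the other aged libraries and 5.57 to 5.94 in the young.

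**Figure D4:**
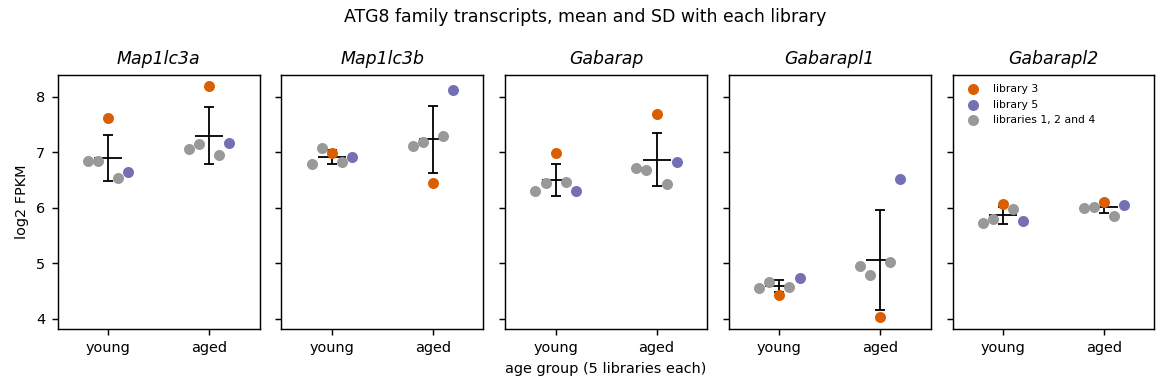
Points are log2 FPKM of each ATG8 gene in each library, with libraries 3 and 5 in color, and bars are the mean and SD of the 5 libraries of each age. Libraries 3 are on top for Map1lc3a and Gabarap, and aged library 5 is on top for Map1lc3b (8.12) and Gabarapl1 (6.51).

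Same-numbered libraries of the 2 ages deviated together, so the number was also used as a block. The labels do not pair the mice, and the block was chosen from these same data. The block and the counts of same-numbered pairs are therefore description only. With this block 3 members were higher at an unadjusted p under 0.05 by limma, against 9.50% of genes, and 0 were lower, against 1.64%. Limma with the block gave an unadjusted p of 0.0174 for Map1lc3a, 0.0218 for Atg7 and 0.0473 for Gabarap, and no member passed an adjusted p of 0.05. The aged library was higher in 5 of 5 pairs for Map1lc3a and in 4 of 5 for Gabarap.

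The most abundant cargo receptor was Sqstm1, which encodes p62, the receptor for ubiquitin-tagged cargo. It measured 8.06, 8.36, 8.23, 8.03 and 7.96 in young and 8.03, 8.17, 7.52, 8.17 and 9.24 in aged libraries, with a difference of 0.10. Its value was above the young range in aged library 5 and below it in aged library 3. The difference was 0.30 without both libraries numbered 3 and -0.16 without aged library 5. Sqstm1-002, which reaches the 3′ end, measured 7.74 in aged library 3, within its young range of 7.37 to 7.79, and Sqstm1-005 measured 9.04 against 7.69 to 8.52. Nbr1, a related receptor, measured 4.06, 4.16, 3.75, 4.18 and 4.06 in young and 4.19, 4.30, 3.48, 4.41 and 4.94 in aged libraries. It differed by 0.22, and without both libraries numbered 3 by 0.35 with no overlap of the groups (limma unadjusted p = 0.0671). Leaving out aged library 3 alone gave 0.42 for Nbr1 (limma unadjusted p = 0.0372), and leaving out aged library 5 alone gave 0.05. Optn, a receptor used in mitophagy, differed by -0.17, with an interval of -0.83 to 0.48, and by 0.05 without both libraries numbered 3.

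Lamp1 was among the members with the tightest groups. It encodes a main protein of the lysosomal membrane and is named here after its values were seen. It measured 7.23, 7.27, 7.44, 7.37 and 7.21 in young libraries 1 to 5 and 7.39, 7.63, 7.62, 7.50 and 7.46 in the aged. The highest young library, number 3, lay above aged library 1 only, and the aged library was higher in 5 of 5 pairs. The difference was 0.22 with an SE of 0.13 (95% interval -0.07 to 0.50), a ratio of 1.16. The exact permutation test gave p = 0.0159, while limma gave an unadjusted p of 0.121. Its window with 4 CACGTG copies is the one shown above. Lamp2, the companion protein needed for fusion with the autophagosome, measured 3.48, 3.52, 3.12, 3.58 and 3.63 against 3.89, 3.74, 2.66, 4.23 and 4.53. Without both libraries numbered 3 its groups did not overlap and differed by 0.54 with an SE of 0.17 (limma unadjusted p = 0.0120). The difference was 0.34 with all libraries and 0.16 without aged library 5. Tfeb, the transcription factor, differed by -0.20 with all libraries and by 0.07 without both libraries numbered 3. These values are of a transcript of 439 bases that ends 2703 bases from the 3′ end and is not annotated as protein-coding. Tfeb-002, a protein-coding transcript that reaches the 3′ end, measured 4.80 to 5.62 in young and 5.04 to 5.35 in aged libraries.

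Among the mitophagy genes 0 of 5 were called with all libraries. Bnip3, a receptor in the outer mitochondrial membrane, measured 6.36, 6.54, 6.23, 6.60 and 6.65 in young and 6.79, 6.85, 6.18, 6.92 and 8.10 in aged libraries. All aged libraries but number 3 were above the young range. Its difference of 0.49 with an SE of 0.31 was the largest of the members, a ratio of 1.41 (limma unadjusted p = 0.137, exact permutation p = 0.127). Without both libraries numbered 3 it was 0.63 with an SE of 0.28 (limma unadjusted p = 0.0506), and without aged library 3 alone it was 0.69 (limma unadjusted p = 0.0261). Without aged library 5 it was 0.21 (limma unadjusted p = 0.302), and without this and both libraries numbered 3 it was 0.32 with an SE of 0.11 (limma unadjusted p = 0.0210). As the mean of all transcripts of the gene it was 0.04 (limma unadjusted p = 0.955). Bnip3l (NIX), its relative, measured 5.14, 5.04, 4.97, 5.31 and 5.28 against 5.39, 5.42, 4.33, 5.34 and 6.26, also with aged library 3 the lowest and aged library 5 the highest, and with a difference of 0.20 (limma unadjusted p = 0.522, exact permutation p = 0.556). Without aged library 3 it was 0.45 (limma unadjusted p = 0.0485), and without aged library 5 it was -0.03. Aged library 5 was 1.41 above the other aged libraries for Bnip3 and 1.15 for Bnip3l.

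Pink1, the kinase that accumulates on damaged mitochondria, was the most abundant member. It measured 8.61, 8.65, 8.68, 8.43 and 8.54 in young and 8.58, 8.70, 7.46, 8.54 and 8.58 in aged libraries. Outside aged library 3 the ranges of the ages overlapped, with a difference of -0.21 and an SE of 0.24 in all libraries (limma unadjusted p = 0.391, exact permutation p = 0.619) and 0.04 without both libraries numbered 3. Its transcript ends 510 bases from the 3′ end, and Pink1-003, which reaches it, measured 8.32 in aged library 3 and 7.80 to 8.17 in the other aged libraries. Park2 (Parkin), the ubiquitin ligase that PINK1 recruits, was near the lower limit, with 0.26, 1.05, 0.42, 0.69 and 1.04 in young libraries and 1.16, 1.12, 0, 1.04 and 1.57 in the aged, on 18 to 44 reads where above 0. Its difference of 0.28 had a limma unadjusted p of 0.353 and an exact permutation p of 0.365. Leaving out both libraries numbered 3 gave 0.46 (limma unadjusted p = 0.0494), and adding a pseudocount of 0.1 gave -0.42. Without aged library 5 the difference of Park2 was 0.14, and without this and both libraries numbered 3 it was 0.34, neither past the threshold. Fundc1, a receptor linked to low oxygen, measured 3.62, 3.39, 2.79, 3.91 and 3.81 against 3.73, 3.75, 2.21, 4.05 and 3.13, and the ranges overlapped. The difference was -0.13 with an SE of 0.35 (limma unadjusted p = 0.728, exact permutation p = 0.762), and both libraries numbered 3 were the lowest of their groups. Without them it was -0.01.

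Genes around the members were read in the same fit, from lists written with earlier results of these data known. No gene of these lists or of the marker lists below passed an adjusted p of 0.05 by limma. Of 12 FoxO factors and FoxO-linked atrophy genes, 0 were higher and 0 lower at an unadjusted p under 0.05 by limma, against 6.05% and 0.876% of genes. Their median difference was 0.14 and became 0.37 without both libraries numbered 3, against 0.07 and 0.14 for all genes. Aged library 5 was the highest of the 10 libraries for 10 of these 12, against 23.7% of genes above 0 everywhere. Aged library 3 was the lowest for 9, against 39.8%. In the other pathway lists aged library 5 was the highest for between 4 of 23 (partners and upstream kinases of ULK1) and 9 of 20 (receptors and adaptors). Fbxo32 (atrogin-1), a ubiquitin ligase of muscle wasting, measured 8.46 in aged library 5 and 4.06 to 6.50 in the other 9 libraries. Trim63 (MuRF1), another such ligase, measured 10.44 against 6.18 to 8.47. Pdk4, which limits glucose oxidation and is known to rise on fasting, measured 9.81 against 5.75 to 8.31. The library that was highest for Ulk1, Gabarapl1, Map1lc3b, Sqstm1, Bnip3 and Bnip3l was thus also highest for these genes. Feeding state and time of collection of the mice were not given in the sources used here, and their part was not tested.

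**Figure D5:**
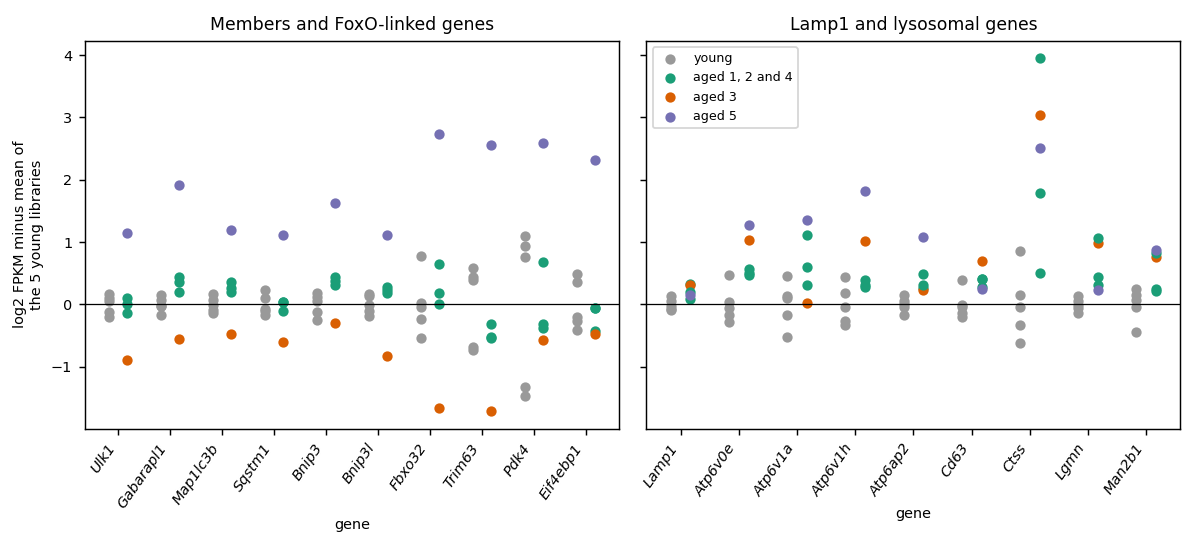
Points are log2 FPKM minus the mean of the 5 young libraries for 6 members beside 4 FoxO-linked genes (left) and for Lamp1 beside 8 lysosomal genes (right), in each library. On the left aged library 5 stands above all others for every gene plotted, and on the right most aged libraries lie above the young mean.

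Of 22 genes of the lysosomal membrane and its proton pump, 5 were higher and 0 lower at an unadjusted p under 0.05 by limma, and the median difference was 0.23. Over all genes the same shares were 6.05% and 0.876%, with a median of 0.07. They were the pump subunits and partners Atp6v0e, Atp6v1a, Atp6v1h and Atp6ap2, and the membrane protein Cd63. With the block 8 were higher, against 9.50% of genes, and without both libraries numbered 3 it was 10, against 13.5%. Atp6v0e measured 3.73, 3.83, 4.36, 3.93 and 3.60 in young and 4.46, 4.36, 4.93, 4.40 and 5.16 in aged libraries, and the groups did not overlap. Its difference was 0.77 with an SE of 0.22 (limma unadjusted p = 0.00474, exact permutation p = 0.00794). That exact p is the smallest possible for 5 against 5 libraries, and every gene without overlap has it. Atp6ap2 measured 2.15 to 2.48 in young and 2.55 to 3.39 in aged libraries, again without overlap.

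Of 28 lysosomal hydrolases tested, 5 were higher and 0 lower by the same test, against 6.05% and 0.876% of genes, with a median of 0.21. Among them were the proteases Ctss (cathepsin S) and Lgmn (legumain) and the sugar-cleaving enzymes Gusb and Man2b1. Counts were 7 with the block, against 9.50% of genes, and 8 without both libraries numbered 3, against 13.5%. Ctss measured 0.49, 1.67, 0.97, 0.78 and 0.20 in young and 2.61, 1.33, 3.87, 4.77 and 3.33 in aged libraries, a difference of 2.36 with an SE of 0.57 (limma unadjusted p = 0.00184). Lgmn measured 3.39 to 3.67 against 3.76 to 4.60, without overlap. Cathepsin S and legumain are also abundant in macrophages. Of 6 macrophage markers tested, 3 were higher (Cd68, Lyz2 and C1qb), against 6.05% of genes, and with the block 4, against 9.50%. The summed FPKM of the list was 17.8 to 44.5 in young and 32.1 to 144 in aged libraries. C1qb was highest in aged libraries 3 (4.91) and 4 (4.70), which were also the highest for Ctss and Lgmn. Cd68 was listed at 0 in 4 of 5 young libraries. The part of macrophages in the lysosomal genes was not tested.

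Of the 20 other receptors and adaptors of selective autophagy, 2 were higher and 0 lower by limma at an unadjusted p under 0.05, against 6.05% and 0.876% of genes, and with the block 2 were higher and 1 lower, against 9.50% and 1.64%. The 2 were Sec62 and Rtn3, both receptors that deliver endoplasmic reticulum. Sec62 had means of 3.78 ± 0.19 (SD, n = 5) and 4.41 ± 0.42, and Rtn3 of 3.12 ± 0.17 and 3.51 ± 0.20. Of 12 MiT/TFE factors and other regulators tested, 1 was higher, against 6.05% of genes. It was Xbp1, a factor of the unfolded protein response. Xbp1 measured 3.77 to 4.14 in young and 4.47, 4.67, 4.38, 4.79 and 4.94 in aged libraries, and the groups did not overlap. Its difference was 0.71 with an SE of 0.16 (limma unadjusted p = 0.00110, exact permutation p = 0.00794). Tfe3, the close relative of Tfeb, differed by 0.42 with limma unadjusted p = 0.0865.

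The label of the tissue was checked by markers of muscle and of other cells. Fast fiber markers were far the most abundant in every library, with 0 of 8 called, and 1 lower without both libraries numbered 3, against 1.38% of genes. Of 5 slow fiber markers tested 1 was higher (Myl3), against 6.05% of genes, and 0 with the block, with summed FPKM of 9.80 to 216 in young and 37.2 to 581 in aged libraries. Of 4 fibroblast markers 1 was lower (Col3a1), against 0.876% of genes, and 2 were lower with the block, against 1.64%, and 2 without both libraries numbered 3, against 1.38%. The 1 B and plasma cell marker tested, Igkc, was higher, against 6.05% of genes. Endothelial, adipocyte and red blood cell markers held 0 calls among 4, 3 and 4, except that 1 adipocyte marker was higher with the block, against 9.50% of genes, and 1 without both libraries numbered 3, against 13.5%. The satellite cell markers Pax7 and Myf5 were listed at 0 in every library.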

How the data were processed

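The authors extracted total RNA of gastrocnemius, prepared libraries from poly-A RNA with a TruSeq kit, sequenced paired ends, mapped them with TopHat2 and Bowtie2 to mm10, and computed FPKM. The deposited values are log2 of FPKM for each transcript and library, with an FPKM under 1 listed as 0. The methods describe a RefSeq gene model, while the rows carry Ensembl and Vega transcript names, and the counting program was not given in the sources used here. Reads of overlapping transcripts and genes, on either strand, cannot be told apart.

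Libraries were grouped by the age in their labels, and all columns matched a sample (0 unused). limma 3.58.1 (R 4.3.3, lmFit and eBayes) was fitted to the deposited log2 values of 38059 transcripts, those whose mean FPKM reached 1, and p-values were adjusted over all of them (Benjamini-Hochberg). Genes were read at the transcript with the highest mean. Single values were compared by two-sided exact permutation over 252 labellings. P-values are unadjusted unless said otherwise. The fit was tested on simulated data. Depth and transcript lengths were recovered from the steps between low values, where whole reads appear (tolerance 0.05 reads), and were used for description only. Lengths were matched to GENCODE vM21. By this match the transcripts used for Map1lc3a, Bnip3l, Tfeb and Atg4a are annotated as processed transcripts, not as protein-coding. That of Gabarapl2 is annotated as a retained intron and that of Pik3c3 as a target of nonsense-mediated decay. Python 3.11.15 with numpy 2.4.6, pandas 2.3.3 and matplotlib 3.10.9 was used.

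The members and all lists were chosen with earlier results of these data known. Full values were given for members called or not overlapping with all libraries, the 5 largest differences, the ATG8 family and 5 mitophagy genes, with up to 4 genes for each list by the smallest p (5 for the lysosomal membrane, where 5 were called). Results for some genes of these lists and of the marker lists are not reported here. Atg13, Uvrag, Atg3, Atg4b, Atg16l1, Nbr1, Lamp1, Lamp2, Ulk1, Sqstm1 and the genes compared in aged library 5 were named after their values were seen. The numbers 1 to 5 are shared by the ages, although the mice differ. Deviations of same-numbered libraries correlated at 0.13, 0.33, 0.69, 0.39 and 0.21, all over 0.1. Their mean was 0.35 against -0.04 for other combinations. Deviations within an age sum to 0, so a positive mean of same numbers itself lowers the other. The labels do not pair the mice. The numbers were taken as pairs from these same data, for description beside the unpaired fit. The alternatives were the block, other filters, pseudocounts of 1 and 0.1, median of ratios and quantile scaling, other choices of transcript, a variance trend, and leaving out libraries.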

Additional observations from a re-analysis of the deposited data

Results flagged for a closer look

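Within each member and age the library farthest from the rest was compared with the spread of the 5 by Dixon's test at 95%, which flags about 1 in 20 groups by chance. It flagged 13 of 82 groups, and each flagged value was in a library numbered 3. In aged library 3 the low values were Becn1 at 3.76, Uvrag at 0.18, Atg3 at 2.24, Atg4b at 0.73, Atg16l1 at 2.39, Tfeb at 4.64 and Pink1 at 7.46, and the high value was Map1lc3a at 8.19. In young library 3 the low values were Uvrag at 1.02, Atg2b at 0.29 and Nbr1 at 3.75, and the high values were Map1lc3a at 7.61 and Gabarap at 6.98. Uvrag and Map1lc3a were flagged in both ages. The other 4 aged libraries lay between 5.60 and 5.88 for Becn1, between 3.55 and 3.72 for Atg4b and between 8.54 and 8.70 for Pink1.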

How the results depend on the processing

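The count of members higher at an unadjusted p under 0.05 by limma was 1, against 6.05% of genes. It became 3 with the replicate block, against 9.50%, and 2 with no filter on low values, against 816 of 12533 genes. With median of ratios scaling it was 0, against 417 of 10161 genes, and with quantile normalization 0, against 360 of 10161. Leaving out each library gave 0 to 12, against 378 to 1274 of 10161 genes (12 without aged library 3, against 12.5%). Without both libraries numbered 3 it was 10, against 13.5%, and without these and aged library 5 it was 10, against 14.2%. The last setting, like the use of the longest transcript, was a choice made after seeing the data. Members lower, and members past the adjusted p, remained at 0 under all 23 alternatives. The median difference, 0.06 with all libraries, ran from -0.03 without aged library 5 to 0.20 without aged library 3. These moves were smaller than the spread between libraries (pooled SD 0.32). Aged libraries 3 and 5 are part of that spread, so the comparison could hardly show a change. Of 390 differences of 17 named members under alternatives, 339 kept direction and side of the threshold and 28 passed it with the same sign. Another 6 no longer passed it and 17 changed sign, 3 of these (all Atg4b) then past it. Ulk1, Sqstm1, Becn1, Wipi1, Wipi2, Optn and Tfeb, whose sign also changed above, are not among these 17. Over all members and alternatives, 77 of 940 differences changed sign. Leaving out each library in turn gave ranges of -0.0165 to 0.318 for Atg3, -0.343 to 0.407 for Atg4b, -0.0305 to 0.454 for Bnip3l, -0.294 to 0.0172 for Pink1 and -0.305 to 0.164 for Fundc1, with the positive values of Atg4b, Pink1 and Fundc1 without aged library 3, the negative values of Atg3 without aged library 2, 4 or 5, and the negative value of Bnip3l (-0.0305) without aged library 5. Atg4b also turned positive as the mean of its transcripts (0.102), without both libraries numbered 3 (0.354), at the longest transcript (0.243) and without these and aged library 5 (0.326). Bnip3l turned negative as the mean of its transcripts (-0.0751). Pink1 turned positive without both libraries numbered 3 (0.0404), also without aged library 5 (0.0459), as did Fundc1 without these 3 (0.164). Park2 turned negative with a pseudocount of 1 (-0.00471) or 0.1 (-0.420). The cause was not tested. The replicate block changed no other call of a named member. Of all unadjusted calls among genes, 87.4% were higher in aged muscle, against 72.6% with median of ratios scaling and 66.3% with quantile normalization. At these depths an FPKM of 1 on 1 kb stands for 19.9 to 34.6 reads, and levels below it are listed as 0, as in 1 library for Park2 and 2 for Atg4a.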

Other observations

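Lists of kinases and sensors upstream of ULK1, of the machinery that carries and fuses autophagosomes, and of mitochondrial fusion and fission were read beside all genes, of which 6.05% were higher and 0.876% lower with all libraries and 13.5% higher without both libraries numbered 3. Of 23 partners and upstream kinases of the ULK1 complex, 0 were higher and 0 lower at an unadjusted p under 0.05 by limma, with a median of -0.03, and without both libraries numbered 3 the counts were 1 and 0. Prkaa2, the main catalytic AMPK subunit of muscle, had means of 4.34 ± 0.37 (SD, n = 5) and 4.31 ± 0.62. Mtor, the kinase that holds ULK1 in check, was listed at 0 in aged library 3 and measured 2.33 to 2.67 in the other aged libraries. Of 24 genes of transport and fusion 0 were called with all libraries, and 5 were higher without both libraries numbered 3, with medians of 0.03 and 0.13. With the block 2 of the 24 were higher, against 9.50% of genes. Of 16 genes of mitochondrial dynamics 0 were called, and 1 was higher without both libraries numbered 3, with medians of -0.04 and 0.06. Aged library 3 was the lowest of the 10 libraries for 14 of the 23, 15 of the 24 and 11 of the 16, against 39.8% of genes above 0 everywhere.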
